A study of Oryza sativa with 4 samples.

Results

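The genes described here are 79 rice loci that an OsGRF6-GFP peak overlapped in callus. They were chosen by the peak positions of 1 ChIP library: a locus counted when the authors' peak table gave at least 1 of its gene models the placement "gene", and 7 further loci were left out by name, 2 of which also had that placement. The 79 loci are drawn from 175 RGAP loci (names beginning with LOC_Os) placed at any of 142 listed peaks, and from 55986 loci in the expression table. They lay at 75 peaks on all 12 chromosomes, from 3 loci each on chromosomes 4, 5, 7 and 8 to 16 on chromosome 1.

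The series holds 4 libraries, 1 in each group. The ChIP library was precipitated with an anti-GFP antibody from callus of p35S:GRF6-GFP transgenic lines, and the input library came from the same kind of callus without antibody. The RNA libraries came from panicles at the secondary branch development stage, one of p35S:MIM396 plants and one of the wild type Yutai B. The 35S promoter is active in most plant tissues, so OsGRF6-GFP was bound in cells that need not normally make it, and binding was measured in cultured tissue while RNA was measured in the inflorescence. No plant or line number is given for any library. Within these limits, the data address which genes lie under OsGRF6-GFP peaks and what level those genes had with and without the MIM396 transgene.

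Growth-regulating factors are plant transcription factors that bind DNA through a WRC domain and recruit GRF-interacting factors through a QLQ domain. They promote cell proliferation in young organs, and the microRNA miR396 lowers their transcripts. MIM396 makes a decoy RNA that sequesters miR396, which is a known way to raise the growth-regulating factors. OsGRF6 is known for its part in branching of the rice panicle.

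The library labelled wild-type panicle stood apart from its label, and every ratio below is taken against it. Of 12 loci listed from general knowledge as panicle and meristem genes, 4 reached 1 FPKM in that library and 5 had no read, whereas 10 reached 1 FPKM in MIM396 and none was without reads. Their summed level was 185.7 FPKM in the library labelled wild type and 1057 FPKM in MIM396. The highest single locus of each library gave most of its sum, 110.8 and 631.0 FPKM. Of 8 loci listed in the same way as leaf photosynthesis genes, all ranged from 903.7 to 17544 FPKM in the library labelled wild type and 6 reached 1 FPKM in MIM396, with sums of 70354 and 31.6 FPKM. The files do not annotate these marker loci, and no growth-regulating factor or miR396 target gene was used to check the genotypes. The part of this contrast in the ratios of single loci was not tested, and with 1 library per group tissue, stage and genotype cannot be told apart. In such bulk RNA, fewer cells of a type and less RNA per cell cannot be told apart either.

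Although the loci were chosen for overlap with the gene, most peaks were centred just outside it, at the gene's start. The orientation of a gene model was read from the authors' labels, which call the flank that the peak enters upstream or downstream. Of the 68 loci whose peak crossed a single labelled edge of the gene model, 56 had the peak over the start and 12 over the end. In a further 9 loci the peak lay inside the gene model, in 1 it spanned the whole model, and in 1 it crossed an edge that carried no flank label within 1 kb. Over the 56 starts, the midpoint of the peak lay at a median of -146 bp, that is upstream (quartiles at -217 and -87.5 bp, range -908 to 463 bp), and it was upstream of the start in 50. These peaks reached a median of 733 bp upstream and 416 bp into the gene. As the 56 peaks were sorted by crossing the start, their width limits how far the midpoint can lie from it.

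**Figure D1:**
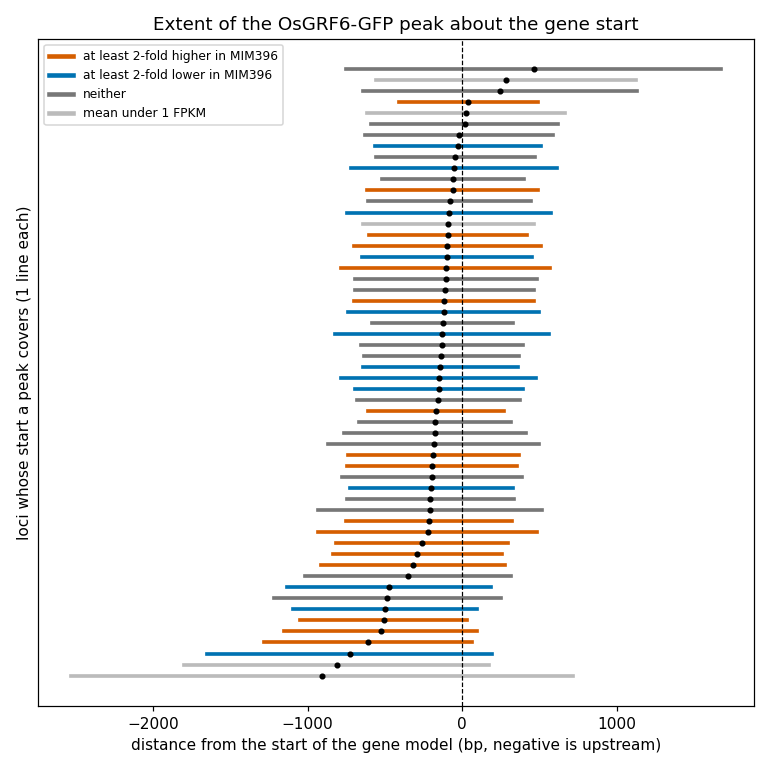
Extent of the peak about the start of the gene model for the 56 loci whose start a peak covered, with 1 line per locus, distance in bp on the x axis (negative is upstream) and a black point at the peak's midpoint. Midpoints lie upstream of the start in 50 of the 56, and loci higher, lower or neither in MIM396 are mixed along the order.

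The peaks were of ordinary size for the list, with a median width of 1184 bp against 1182 bp for all 142 peaks, and a range of 880 to 3253 bp. They shared a median of 465 bp with the gene model, 12.7% of its length. The overlap was shortest, 33 bp, at the polyubiquitin locus LOC_Os02g06640, and 66, 95 and 99 bp at LOC_Os05g08400, LOC_Os12g19304 and LOC_Os11g06410. Just outside the rule, the peaks of LOC_Os03g05200 and LOC_Os05g37930 ended 0 and 3 bp from the gene model by the deposited positions. These neighbours of the limit had 8.48 and 7.23 FPKM, and 5.96 and 52.0 FPKM, with the library labelled wild type given first. A distance of 0 bp means that the peak and the gene model of LOC_Os03g05200 share an end position. The overlap measure used for the 79 loci would count this, but the authors did not label that locus "gene". Peaks were placed on RAP gene models and expression was counted on RGAP intervals, and at 7 of the 79 loci the peak missed the RGAP interval altogether. Of those 7, only LOC_Os11g43800 had a mean of at least 1 FPKM. The peak's midpoint lay inside the RGAP interval at 20 of the 79 loci. At LOC_Os01g03914, LOC_Os01g55799 and LOC_Os08g07970 the midpoint was upstream of the RAP start, yet the whole peak lay inside the RGAP interval.

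Most of the overlapped loci had RNA in the 2 RNA libraries. A mean of at least 1 FPKM over both libraries was reached by 64 of the 79 loci, 81.0%, against 34.8% of all 55986 loci. By position, it was reached by 51 of the 56 loci with a peak over the start, 8 of the 12 with a peak over the end and 4 of the 9 with a peak inside. Among the expressed loci, the median level was 14.6 FPKM in the library labelled wild type and 18.7 FPKM in MIM396, against 10.1 and 8.77 FPKM over all 19456 expressed loci. The 55 loci with a peak upstream but not overlapping had 49 expressed members, 89.1%, with medians of 9.07 and 15.8 FPKM. The 34 loci with a peak downstream only had 27, 79.4%, with medians of 21.1 and 10.4 FPKM. A high expressed share was thus not particular to overlapped loci, and 28731 of all 55986 loci had no read in either library.

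Among the 64 expressed loci, 19 were higher in MIM396 by 2-fold or more, 17 were lower by as much and 28 were neither, all on FPKM + 1. The same limits took 23.1% of all expressed loci as higher and 27.3% as lower, against 29.7% and 26.6% of the overlapped loci. The median log2 ratio was 0.20 (quartiles -1.09 and 1.18), against 0.00 over all expressed loci (quartiles -1.16 and 0.91). The overlapped loci thus spread in both directions with shares near the background. With FPKM brought to equal totals, the median of all loci moved to 0.69 and that of the overlapped loci to 0.84, and the split became 28 higher and 11 lower, against 40.3% and 19.0% of all loci. Among the 49 expressed loci with a peak upstream only, 15 were higher and 7 lower, with a median of 0.59. Among the 27 with a peak downstream only, 5 were higher and 9 lower, with a median of -0.11. The upstream and downstream sets are given under the authors' scaling only. With 1 library per group none of these differences between sets was tested.

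**Figure D2:**
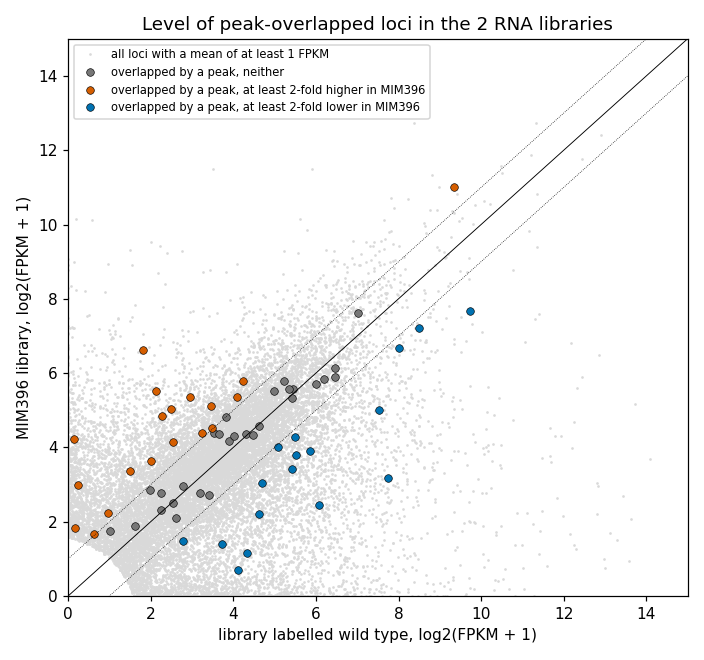
Level of each locus as log2(FPKM + 1) in the library labelled wild type (x axis) and the MIM396 library (y axis). Grey dots are the 19456 expressed loci, and larger points the 64 overlapped loci among them. The solid line marks equal levels and the dotted lines 2-fold. There are 19 overlapped loci above the upper dotted line and 17 below the lower one, within the cloud of all loci.

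**Figure D3:**
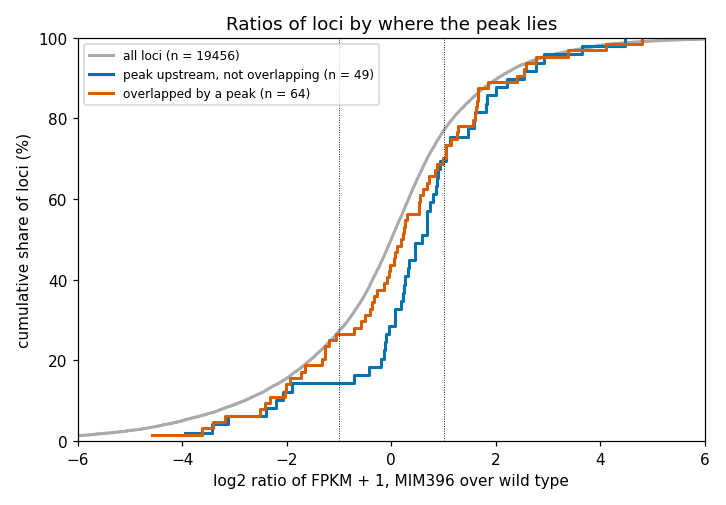
Cumulative share of loci (%) against the log2 ratio of FPKM + 1, MIM396 over wild type, for all expressed loci (n = 19456), loci with a peak upstream only (n = 49) and overlapped loci (n = 64). Dotted lines mark 2-fold. The curve of the overlapped loci is close to that of all loci at -1 and 2 and lies to its right in between.

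The position of the peak and the direction are set side by side as a description. Of the 51 expressed loci with a peak over the start, 17 were higher and 13 lower, with a median log2 ratio of 0.22. Of the 8 with a peak over the end, 1 was higher and 4 lower, with a median of -0.44. At equal totals 3 of these 8 were higher and 2 lower, with a median of 0.24. Over all expressed loci, 23.1% were higher and 27.3% lower, and at equal totals 40.3% and 19.0%. The median midpoint of peaks over the start was at -193.5 bp in the 17 higher loci, -141 bp in the 13 lower ones and -131.5 bp in the 21 that were neither, and the ranges overlapped.

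Loci with a DNA-binding or other nuclear annotation numbered 10, of which 8 were expressed, 1 higher, 3 lower and 4 neither. This and the following groups were formed from the words of the annotation with the values already known. The shares over all expressed loci, 23.1% higher and 27.3% lower, stand beside each of these groups. The higher locus was LOC_Os11g06410, a homeodomain-like gene with a SANT domain, a fold found in MYB-type factors and chromatin proteins. It had 3.03 FPKM in the library labelled wild type and 11.4 FPKM in MIM396, from 76 and 370 reads, 3.89-fold higher in scaled reads (95% exact conditional binomial interval 3.03 to 5.04, counting error only, as for all intervals here).

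The lower nuclear loci were a WRKY factor, a bZIP factor and a methyl-CpG-binding protein. LOC_Os08g17400, with the deposited symbol WRKY89, is described as similar to TRANSPARENT TESTA GLABRA 2, which acts in trichomes and seed coat of Arabidopsis. It had 2004 and 619 reads and was 4.05-fold lower (3.70 to 4.44), and its interval overlaps that of another locus, so its reads are uncertain. LOC_Os08g07970, similar to the bZIP factor HBP-1b, had 5.81 and 1.81 FPKM. LOC_Os12g42550 has a methyl-CpG DNA-binding domain, which reads DNA methylation, and was among the most abundant of the 79 loci. It had 357.3 FPKM in the library labelled wild type and 148.4 FPKM in MIM396, a level 2.42-fold lower (2.33 to 2.52). The bZIP and methyl-CpG loci lay within 2-fold once FPKM totals were made equal, whether or not the 50 most abundant loci stayed in.

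The other expressed nuclear loci differed by less than 2-fold. LOC_Os07g37140 carries a WRC domain, the DNA-binding domain that growth-regulating factors also have, and had 15.2 and 18.9 FPKM. LOC_Os03g39129 belongs to the Frigida-like family, named after an Arabidopsis gene that delays flowering, and had 9.70 and 5.53 FPKM. LOC_Os01g49010 encodes ORC4, a subunit of the complex that marks origins of DNA replication, and had 3.73 and 3.97 FPKM. LOC_Os03g57160, a zinc-finger gene of the C3HC type, had 13.9 and 17.0 FPKM. Under 1 FPKM lay LOC_Os03g41600, a lateral organ boundaries gene, with 6 and 7 reads, and LOC_Os12g07030, an AP2-type gene, with 21 and 13 reads.

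The 3 loci with RNA-binding annotations were all expressed, and 2 were higher. LOC_Os05g08400, a CCCH zinc-finger gene, had 3 reads in the library labelled wild type and 76 in MIM396, 0.125 and 2.53 FPKM. LOC_Os10g33970 has a double-stranded RNA-binding and a ribonuclease III annotation, features of enzymes that cut paired RNA, and had 10.2 and 22.0 FPKM. The RNA recognition motif gene LOC_Os01g16090 had 41.9 and 39.4 FPKM.

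Protein turnover was represented by 8 loci, all expressed, with 3 higher, 1 lower and 4 neither. They include the most abundant overlapped loci, both encoding ubiquitin, the small protein that marks others for breakdown, and these differed in opposite directions. LOC_Os02g06640, similar to polyubiquitin (chromosome 2, 3340458 to 3343060, peak 40 at 3343028 to 3344107), had 648.6 FPKM in the library labelled wild type and 2062 FPKM in MIM396, a level 3.18-fold higher (3.12 to 3.23). LOC_Os06g46770, a ubiquitin domain gene (chromosome 6, 28401740 to 28404496, peak 125 at 28400090 to 28401936), had 845.8 and 204.5 FPKM, 4.15-fold lower (4.03 to 4.26). The high counts make these intervals narrow, but ubiquitin genes are repeats of near-identical units, so the division of reads between them is uncertain. In the authors' deposited table these loci had FDR values of 0.878 and 0.752.

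Of the ligase and protease genes, 1 was past 2-fold and 4 were not. The higher one was LOC_Os01g59690, an F-box gene, whose product class selects targets for ubiquitin ligases, with 161 and 1188 reads, 5.89-fold higher (4.99 to 6.99). LOC_Os09g26400 is similar to ABI3-interacting protein 2, a RING ligase that in Arabidopsis targets an abscisic acid response factor, and had 86.7 and 69.1 FPKM. The RING-type genes LOC_Os02g36740 and LOC_Os11g38800 had 72.5 and 56.2 FPKM, and 21.4 and 19.3 FPKM. The papain-type protease gene LOC_Os11g23770 had 4.79 and 4.71 FPKM. The higher chaperone gene was LOC_Os01g62300 of the HSP20 type, at 16.1 and 40.2 FPKM.

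Signalling genes numbered 6, all expressed, with 2 higher, none lower and 4 neither. Protein phosphatases of type 2C, a family that includes repressors of abscisic acid signalling, had 2 members under peaks. LOC_Os02g27220 had 8.38 and 19.8 FPKM and was higher, and LOC_Os01g62760 had 62.8 and 51.6 FPKM. The other higher locus was LOC_Os07g04220, a serine/threonine kinase gene with leucine-rich repeats, with 37 and 179 reads. LOC_Os03g63020, a kinase gene similar to a GAMYB-binding protein (GAMYB is a gibberellin-responsive factor), had 39.6 and 46.5 FPKM. The phosphatidylinositol kinase-type gene LOC_Os06g23290 had 87.3 and 58.2 FPKM, and the C2 domain gene LOC_Os02g22130, of a class that binds calcium and lipids, had 18.7 and 19.4 FPKM.

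Transport, membrane and cytoskeleton genes numbered 10, of which 9 were expressed, 3 higher, 2 lower and 4 neither. The lowest ratio of this group belonged to LOC_Os03g29850, a zinc/iron permease (chromosome 3, 17008027 to 17011263, peak 65 at 17011075 to 17012399), a protein type that takes up zinc and iron. It had 66.1 FPKM in the library labelled wild type and 4.42 FPKM in MIM396, a level 15.1-fold lower (12.3 to 18.6). LOC_Os01g55799 encodes an Exo70 subunit of the exocyst, which tethers secretory vesicles to the plasma membrane. It had 1342 and 169 reads, 9.94-fold lower (8.47 to 11.7). In FPKM its difference was smaller, 23.6 and 3.60, with a log2 ratio of -2.42 on FPKM + 1. The permease and Exo70 loci kept at least 2-fold under each scaling tried.

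The higher loci of this group act at membranes and on actin. LOC_Os10g35980, a tetraspanin gene (chromosome 10, 19230267 to 19233195), had 69 and 588 reads, 6.80-fold higher (5.30 to 8.86). Tetraspanins organise proteins within membranes. LOC_Os03g25750, annotated as SNARE-associated Golgi protein, had 45 and 280 reads, 4.97-fold higher (3.62 to 6.97). LOC_Os03g05020 is similar to KLUNKER/PIROGI, a subunit of the complex that activates actin branching in Arabidopsis, and had 552 and 2312 reads, 3.34-fold higher (3.05 to 3.68).

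The remaining expressed members of the group lay within 2-fold on FPKM + 1. LOC_Os01g53520, a reticulon, a protein that shapes the endoplasmic reticulum, had 129.1 and 197.3 FPKM, a ratio of 1.52 (1.44 to 1.60). The cation efflux gene LOC_Os01g03914 had 13.2 and 27.4 FPKM, at the limit, and was 2.06-fold higher in scaled reads (1.84 to 2.32). The Spc97/Spc98 gene LOC_Os02g32340, of the family that nucleates microtubules, had 11.6 and 19.3 FPKM. These last 3 loci passed 2-fold higher at equal totals. LOC_Os03g57170, a transmembrane gene, had 8.13 and 5.87 FPKM. The cyclic nucleotide-gated channel LOC_Os03g44440 lay under 1 FPKM, with 11 and 29 reads.

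Metabolic genes numbered 13, of which 9 were expressed, with none higher, 5 lower and 4 neither. Their median log2 ratio was -1.19 under the authors' scaling and -0.48 at equal totals, where 2 were higher and 2 lower. Over all expressed loci 23.1% were higher and 27.3% lower, and the difference of this small group was not tested. LOC_Os06g44170 (chromosome 6, 26650225 to 26652370) is similar to a maize gene of resistance to the fungus Helminthosporium carbonum and was covered at its end by peak 124 (26649121 to 26650373). It had 16.2 FPKM in the library labelled wild type and 0.617 FPKM in MIM396, from 297 and 14 reads. LOC_Os12g19304, similar to quinolinate synthase of NAD synthesis, had 342 and 58 reads, 7.38-fold lower (5.58 to 9.93). These 2 loci were lower under each scaling tried.

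The other lower metabolic loci were less unequal. LOC_Os10g37980, a prephenate dehydratase gene of phenylalanine synthesis, had 685 and 247 reads. LOC_Os09g38030 encodes UDP-glucose pyrophosphorylase, which makes the sugar donor for sucrose and cell wall synthesis. It had 258.7 and 102.1 FPKM, 2.55-fold lower (2.44 to 2.66). LOC_Os12g07020, a folate-cycle ligase gene, had 43.8 and 18.6 FPKM. All 3 lay within 2-fold at equal totals.

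The other 4 metabolic loci lay within 2-fold, of which the dikinase and thioredoxin-domain genes passed it, higher in MIM396, at equal totals. The pyrophosphate-dependent phosphofructokinase gene LOC_Os01g09570, of glycolysis, had 23.5 and 22.7 FPKM. LOC_Os05g33570 encodes pyruvate orthophosphate dikinase, with peak 106 inside the gene, and had 36.2 and 53.7 FPKM. The acetate-CoA ligase gene LOC_Os04g33190 had 5.07 and 3.28 FPKM. The thioredoxin-domain gene LOC_Os01g58194 had 2.95 and 6.28 FPKM, and was 2.12-fold higher in scaled reads (1.58 to 2.88).

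Peak 185 on chromosome 12 (5612388 to 5615640) was the widest of the peaks, at 3253 bp, and covered 2 neighbouring loci annotated with plastid-type proteins. LOC_Os12g10580 is similar to the large subunit of Rubisco, and the peak spanned its whole gene model. LOC_Os12g10570 is similar to the beta subunit of ATP synthase. These proteins are encoded by plastid DNA in plants, so nuclear loci of this kind can be near-identical copies whose reads are uncertain, in ChIP as in RNA. They had 9 and 1 reads in the library labelled wild type and none in MIM396.

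Of the 11 described loci outside these groups, 10 were expressed, with 4 higher, 3 lower and 3 neither. They include the highest and the lowest log2 ratio of FPKM + 1 among the expressed overlapped loci, 4.79 and -4.58, while in scaled reads 2 undescribed loci with 4 and 5 reads in the library labelled wild type had larger folds. LOC_Os10g42610, a tetratricopeptide-type gene (chromosome 10, 22964272 to 22965575, peak 169 at 22965108 to 22966274), had 2.53 FPKM in the library labelled wild type and 96.9 FPKM in MIM396, a level 38.1-fold higher (28.8 to 51.5). At the other end, LOC_Os08g16570 (chromosome 8, 10138571 to 10141527), described only as similar to a predicted protein, had 212.5 and 7.96 FPKM, 27.1-fold lower (22.9 to 32.2).

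Further loci with family names but no clear role followed. LOC_Os03g55470, of the DUF566 family, had 126 and 1145 reads, 7.26-fold higher (6.03 to 8.79). LOC_Os03g58230, of the DUF506 family, had 17.8 and 54.3 FPKM, and the lipid transfer or seed storage domain gene LOC_Os01g42210 had 4 and 20 reads. The T-complex 11 gene LOC_Os04g35840 had 2360 and 674 reads, 4.39-fold lower (4.02 to 4.78), and LOC_Os04g57760 had 44.6 and 12.8 FPKM. The universal stress protein gene LOC_Os07g36600 had 30.7 and 44.9 FPKM, the DUF502 gene LOC_Os01g64780 42.9 and 46.6 FPKM, and the ATP10 gene LOC_Os05g08410 5.87 and 6.78 FPKM. The interval of LOC_Os01g64780 overlaps that of another locus, so its reads are uncertain. The disease-resistance type gene LOC_Os11g10610 had no read in either library.

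**Figure D4:**
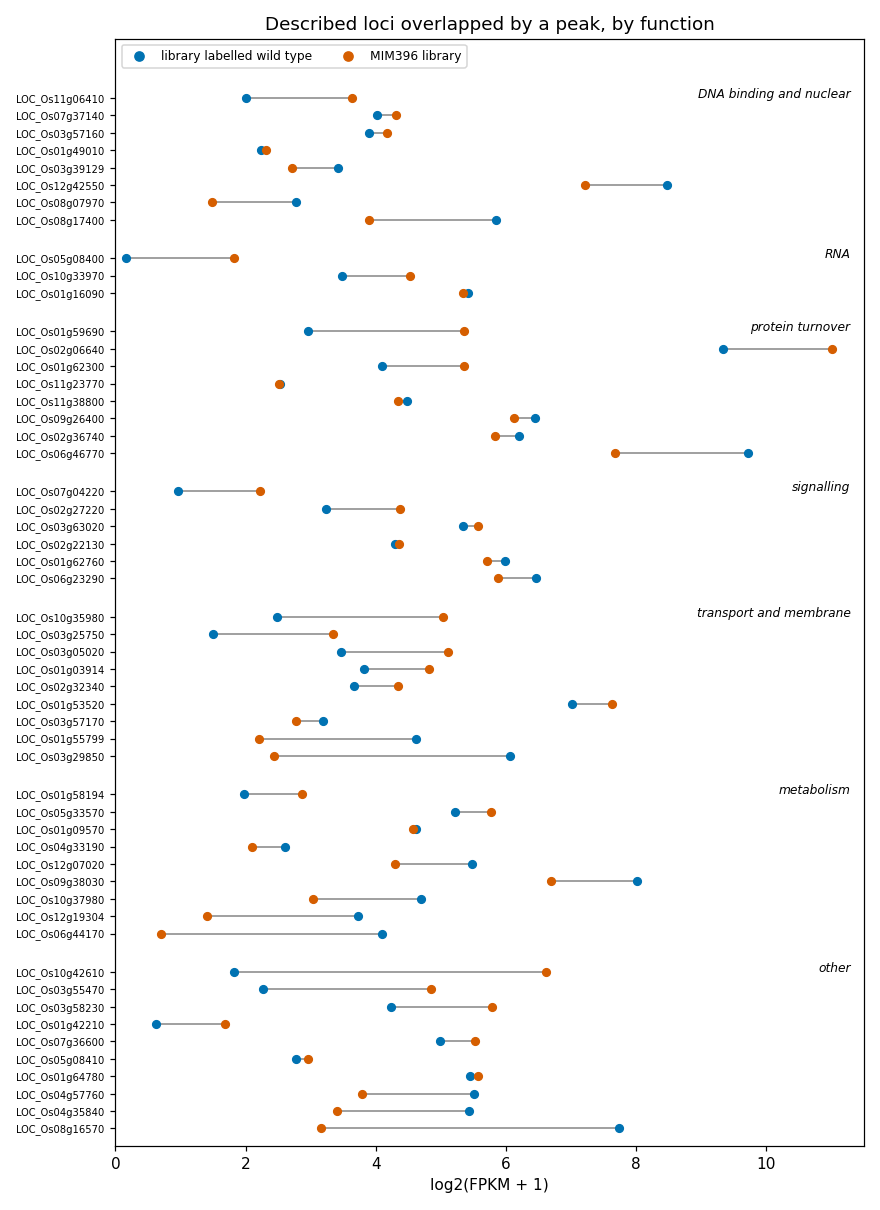
Level of the 53 expressed and described overlapped loci as log2(FPKM + 1), with 1 row per locus, grouped by annotation and ordered by ratio within a group. Blue points are the library labelled wild type and orange points the MIM396 library. Among the 9 metabolic loci the 5 with the longest lines have the orange point on the left, and the 2 ubiquitin loci at the far right point in opposite directions. Levels are under the authors' scaling, and at equal totals 2 metabolic loci were higher and 2 lower.

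The 18 loci with only hypothetical descriptions had 11 expressed members, 4 higher, 3 lower and 4 neither, with a median log2 ratio of 0.72. Some of them are named here after their values were seen. LOC_Os12g06480 and LOC_Os12g06464 neighbour each other on chromosome 12, each with a peak of its own over its start, and both were higher. LOC_Os12g06480 (3118079 to 3124707, peak 183), with a PHD-type zinc finger of the kind found in chromatin proteins, had 4 and 981 reads, 0.0946 and 17.9 FPKM, 195.8-fold higher (76.2 to 720.2). LOC_Os12g06464 (3100851 to 3110416, peak 182) had 65 and 1069 reads, 13.1-fold higher (10.2 to 17.1). LOC_Os11g28910, the only higher locus with a peak over its end, had 5 and 255 reads, and LOC_Os01g68970 had 4.82 and 16.7 FPKM. The lower ones were LOC_Os06g43810, with 183.5 and 31.2 FPKM, LOC_Os02g36530, with 28 and 2 reads, and LOC_Os06g40415, with 32.6 and 15.2 FPKM.

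Some peaks overlapped both of 2 neighbouring loci. Peak 75 (chromosome 3, 32598655 to 32599707) covered the starts of LOC_Os03g57160 and LOC_Os03g57170, which point away from each other, and neither locus differed by 2-fold. Peak 103 (chromosome 5, 4583973 to 4585319) covered the start of LOC_Os05g08400 and the end of LOC_Os05g08410, of which the first was higher in MIM396 and the second within 2-fold. Peak 184 (chromosome 12, 3437090 to 3438089) covered the ends of LOC_Os12g07020 and LOC_Os12g07030, which point towards each other, and the first was lower while the second lay under 1 FPKM.

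At peak 124 the overlapped locus and both flanking loci placed within 3 kb were all lower in MIM396. LOC_Os06g44170, LOC_Os06g44160 and LOC_Os06g44180, the last similar to an NADPH HC toxin reductase, had log2 ratios of -3.41, -3.43 and -3.06. LOC_Os06g44180 had 13.2 FPKM in the library labelled wild type and 0.692 FPKM in MIM396. At peak 131, the WRC domain gene LOC_Os07g37140 had a log2 ratio of 0.29 and LOC_Os07g37130, a nucleoside transporter family gene with the peak within 1 kb upstream, had -2.06. Elsewhere some neighbours shared a direction and others did not, and the peaks given here are examples named after their values were seen. At peak 49, LOC_Os02g36530 and its neighbours LOC_Os02g36520 and LOC_Os02g36550 had log2 ratios of -3.19, -1.11 and -0.89. At peak 46, LOC_Os02g32340 and its neighbour LOC_Os02g32350 had 0.69 and 0.84. At peak 28, LOC_Os01g62300 had 1.27 and its neighbour LOC_Os01g62290 -2.28. At peak 200, LOC_Os12g42550 had -1.26 and its neighbour LOC_Os12g42570 2.35.

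The 15 loci under a mean of 1 FPKM included 6 with no read in either library, and the other 9 had a mean of at most 0.869 FPKM. Of the 15, 8 were described. Among those not yet given, LOC_Os02g49140, similar to an alpha galactosyltransferase, had 35 and 8 reads, and the sugar transferase LOC_Os01g69140 had none.

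The authors' deposited table gave an FDR (a p-value adjusted over their loci) under 0.05 to 5 expressed loci that were higher and 3 that were lower, 7.81% and 4.69% of the 64. Over all expressed loci these shares were 5.3% and 8.22%. The higher ones were LOC_Os12g06480 (0.0020), LOC_Os11g28910 (0.00366), LOC_Os10g42610 (0.0129), LOC_Os12g06464 (0.0202) and LOC_Os05g08400 (0.0305). The lower ones were LOC_Os03g29850 (0.0142), LOC_Os06g44170 (0.0409) and LOC_Os08g16570 (0.0486). The sources used here do not say how these values were made from 1 library per group.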

How the data were processed

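The authors deposited a table of peaks, whose identifiers begin with MACS, placed at RAP gene models (overlapping, or within 1 or 3 kb), and an expression table of RGAP loci. Per the file headers, the latter holds FPKM, a read signal and an FDR (adjusted p-value) from the authors, and the other columns give positions. FastQC and Bowtie are named in the submitters' processing notes. Not given in the sources used here were the counter, the peak threshold, the genome build and whether counting used strand, so reads of overlapping genes cannot be told apart. The deposited signal was divided by its commonest low step, 1.057 in the library labelled wild type and 0.844 in MIM396. Of the positive values, 97.8% and 99.0% then lay within 0.01 of whole, with totals of 16337526 and 13125593 reads, from which single-locus intervals (95%, Clopper-Pearson) were computed. As the reads carry no molecular identifiers and may repeat a molecule, these intervals cover only counting error. The library depth of ChIP and input was not analysed here, and peaks came from 1 library.

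Levels were compared as log2((MIM396 FPKM + 1) / (wild-type FPKM + 1)), a scale that shrinks differences at low levels. A locus was expressed at a mean of at least 1 FPKM and higher or lower at 2-fold. With 1 library per group no test was run, and no count tool was used. The placement of a locus is that of its gene model with the longest overlap. Members, groups and marker lists were chosen with earlier results of these data known. The rule for naming took expressed and described loci, and the loci under 1 FPKM or with only hypothetical descriptions that the text names were chosen after their values were seen. Reads and intervals were planned for the 8 highest and 8 lowest ratios with a mean of at least 5 FPKM and for the 6 most abundant loci, and some others are given with them. The size rule and intervals were tested on simulated data with counting error only (Python 3.11.15, scipy 1.17.1). The simulation held no difference of tissue, plant or scaling, so it cannot show how the 2-fold rule performs on these libraries. No sequence was used here.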

Additional observations from a re-analysis of the deposited data

How the results depend on the processing

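The count of 19 higher and 17 lower loci and the median log2 ratio of 0.20 were recomputed under other settings. With FPKM at equal totals the lower count was 11, the higher count 28 and the median 0.84. Equal totals raise the ratio of every locus with reads, so the 19 higher loci kept their call by construction. Of the 17 lower loci, 11 kept theirs. With the peak's midpoint inside the RGAP interval, 3 of 15 expressed loci were higher and 3 lower. With the wider peaks it was 8 and 10 of 31. The shares over all expressed loci were 23.1% and 27.3%. At a 4-fold limit it was 7 and 9 of 64, against 10.4% and 15.6% of all expressed loci. The midpoint and width settings counted fewer loci by construction, and the 4-fold limit was stricter. The median ranged from 0.08 at a mean of at least 5 FPKM to 0.84 at equal totals. The median of all loci was -0.01 and 0.69 at these settings, and the differences were not tested. Settings that used the RGAP interval or the peak over the start only were added after seeing the data. No paired analysis was possible because each group has 1 library. Depth limits loci with few reads, whose intervals span several fold.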
